A study of Mus musculus with 8 samples.

Results

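Spermatocytes lacking CNOT4 were compared with wild-type (WT) spermatocytes at the leptotene and zygotene stages of meiotic prophase (LZ). The comparison used 4 of the 8 RNA-seq libraries of the series, 2 Cnot4-null LZ libraries and 2 WT LZ libraries, chosen by the genotype and stage in their labels. The remaining 4 libraries hold the same genotypes at the pachytene and diplotene stages (PD). Of 23235 gene symbols, 13255 had more than 1 FPKM (mapped fragments scaled by transcript length and by the size of the library) in at least 1 of the 4 LZ libraries and were tested, and 12259 of these were protein-coding genes apart from Mir, Snora and Snord symbols. The Cnot4-null cells, labelled Cnot4-KO, came from Cnot4 fl/fl;Stra8-Cre males, in which Cre is driven by a promoter of premeiotic germ cells, so that somatic cells of the testis keep the gene. The controls are labelled Cnot4-WT, with no further allele given. All animals were untreated C57BL/6 males, 6 weeks old by the study's methods, and the cells were sorted by Hoechst and propidium iodide staining. The study describes its duplicates as biological replicates, while the labels do not name separate animals, and the p-values rest on the spread of 2 libraries per group.

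CNOT4 is an E3 ubiquitin ligase that binds the CCR4-NOT complex, the main cytoplasmic deadenylase, which shortens the poly(A) tails of mRNAs before they are decapped and degraded. In leptotene and zygotene spermatocytes, programmed DNA breaks are made and the chromosome axes form and begin to pair. Pachytene cells complete pairing and switch on many genes that are used in spermatids, and the germ cells are enclosed and fed by Sertoli cells, the somatic cells of the tubule.

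The stage labels were checked against marker lists. The 17 leptotene and zygotene markers summed to 3276 and 3419 FPKM in WT LZ 1 and WT LZ 2 and to 5944 and 3524 in the Cnot4-null LZ libraries, against 1541 and 1628 in the WT PD libraries. The 30 pachytene and diplotene markers summed to 893 and 1052 FPKM in WT LZ and to 913 and 555 in Cnot4-null LZ, against 24250 and 23235 in WT PD. Both LZ groups therefore had the higher level of the early markers and a far lower level of the late ones than WT PD. The spermatid genes did not separate the stages in this way. They summed to 2232 and 2137 FPKM in WT LZ and 4731 and 983 in Cnot4-null LZ, against 2840 and 2564 in WT PD. Prm1 among them had 911 and 612 FPKM in WT LZ against 176 and 74.8 in WT PD. The part of spermatid RNA in the LZ samples was not tested.

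Cnot4 itself had 36.0 and 34.9 FPKM in the WT LZ libraries and 43.2 and 34.6 in the Cnot4-null LZ libraries. The 2 groups overlapped, with means of 35.5 (SD 0.801) and 38.9 (SD 6.11) and a log2 difference of 0.12 (SE 0.20, limma adjusted p = 0.943). This difference was -0.04 without Cnot4-null LZ 1. The files give a single value per gene, so the loss of an exon cannot be seen in them and these levels do not test the genotype. Cnot4 lies at chr6:34972066-35083737 (mm9, minus strand), and none of the 12 other tested coding genes within 1 Mb was called. Among these neighbours is Stra8, the retinoic acid target whose promoter drives the Cre. Stra8 had 330 and 293 FPKM in WT against 614 and 355 in Cnot4-null LZ (log2 difference 0.58, SE 0.32, adjusted p = 0.761). Both null values of Stra8 were above both WT values, although the null duplicates lay further from each other than the lower of them lay from WT.

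The difference between the genotypes at LZ was about as large as that between duplicates. Across the 13255 genes, the SD of the log2 differences was 0.772 between the WT duplicates and 0.751 between the Cnot4-null duplicates, and ranged from 0.768 to 0.870 in the 4 pairs of a null and a WT library. The number of genes that differed at least 2 times was 1244 and 1028 between duplicates, and 1261, 1145, 1391 and 1568 between genotypes. WT LZ 2 was the library of both of the larger values. The median log2 difference over all tested genes was 0.007, and its values in the 4 pairs were 0.045, 0.098, -0.088 and -0.030. An exact permutation test of 2 against 2 libraries cannot give a two-sided p below 0.333, so single genes were tested with limma across all genes and described by the agreement of the 4 single-library ratios.

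**Figure D1:**
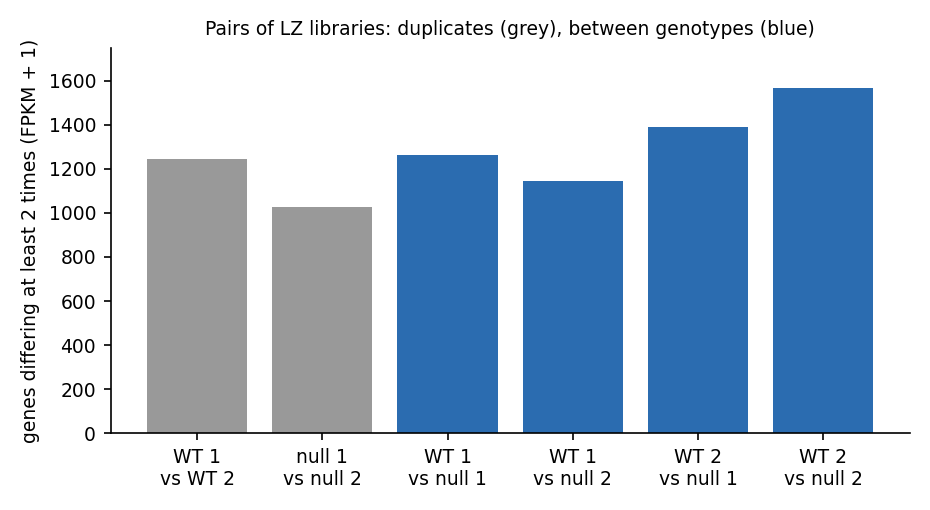
Number of tested genes that differed at least 2 times in FPKM + 1 between 2 LZ libraries (y axis), for each pair of libraries (x axis). The bars of the duplicates (grey, 1244 and 1028 genes) are about as high as those between genotypes (blue, 1145 to 1568 genes).

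By limma, 15 of the 13255 tested genes and small RNA entries were called at LZ (0.113%, adjusted p under 0.05), and 972 (7.33%) had an unadjusted p under 0.05. Among the coding genes, 5 of 12259 were called (0.0408%), of which 3 rose and 2 fell. With only the genes that had a mean FPKM above 1 in both LZ groups, 1 of the 15 was called, Apoc2, since the other 14 lay below that level in a genotype and were not tested. In all 4 ratios, the Cnot4-null value was at least 2 times the WT value in 23 coding genes (0.188%) and the WT value at least 2 times the null value in 78 (0.636%). A further 33 and 89 coding genes passed 2 times in 3 of the 4 ratios, 384 and 561 in 2 ratios, and 748 and 765 in a single ratio. So most coding genes past 2 times in some ratio were not past it in the others. Without 1 library only 2 ratios are left to agree, and the counts of higher and lower coding genes were then 124 and 380 without WT LZ 1, 114 and 206 without WT LZ 2, 109 and 301 without Cnot4-null LZ 1, and 195 and 164 without Cnot4-null LZ 2. The log2(FPKM + 1) scale understates the change of genes at low levels, and with a pseudocount of 0.1 the counts were 108 and 234.

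**Figure D2:**
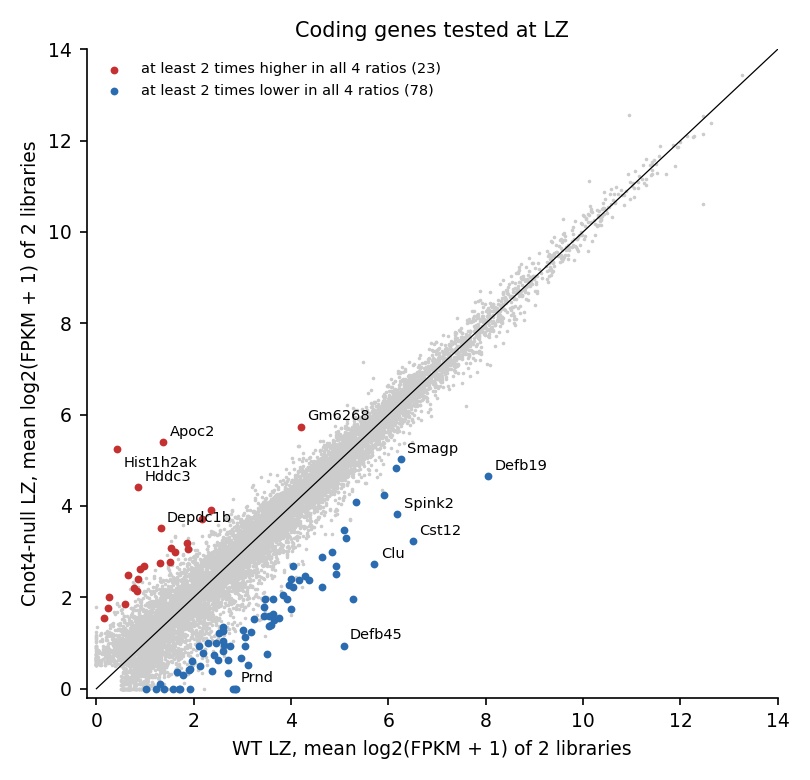
Mean log2(FPKM + 1) of the 2 WT LZ libraries (x axis) and of the 2 Cnot4-null LZ libraries (y axis) for each tested coding gene (grey), with the diagonal of equal levels. The 23 genes at least 2 times higher (red) and the 78 at least 2 times lower (blue) in all 4 ratios lie mostly at low levels.

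Of the called coding genes, Hddc3 had the smallest adjusted p. It encodes a metazoan relative of the bacterial enzymes that hydrolyse the alarmone ppGpp, and lies at chr7:87488023-87490983. Hddc3 had 0.949 and 0.673 FPKM in WT LZ against 20.5 and 20.2 in Cnot4-null LZ. The duplicates were close and the groups far apart, with a log2 difference of 3.56 (SE 0.27, adjusted p = 0.00378). At PD, Hddc3 had 11.7 and 8.40 FPKM in WT against 26.7 and 18.4 in Cnot4-null, so the low level was found in the WT LZ libraries and not in WT PD. The genotype difference was smaller at PD than at LZ by 2.48 on the log2 scale, a change of -2.48 (interaction adjusted p = 0.0043).

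Apoc2, which encodes the apolipoprotein that activates lipoprotein lipase, had 1.82 and 1.38 FPKM in WT LZ against 46.8 and 35.8 in Cnot4-null LZ. Its log2 difference was 4.02 (SE 0.35, adjusted p = 0.0076). The gene, at chr7:20256928-20266772, overlaps Apoc4 on the same strand, so which of them the fragments came from is uncertain. Hist1h2ak, a replication-dependent histone H2A gene at chr13:21845264-21845776, had 0.823 and 0 FPKM in WT against 38.7 and 35.8 in Cnot4-null LZ, a log2 difference of 4.82 (SE 0.42, adjusted p = 0.0076). Near-identical copies of this histone gene exist and only uniquely mapped reads were kept, so its level is uncertain too. In both genes each null library was far above each WT library, and the duplicates were close.

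The called coding genes that fell were at 0 in both Cnot4-null libraries. The symbol 1190002H23Rik, known as Rgcc, a regulator of the cell cycle, had 5.04 and 7.05 FPKM in WT LZ against 0 in both Cnot4-null LZ libraries (log2 difference -2.80, SE 0.25, adjusted p = 0.0076), and lies at chr14:79688558-79701442. Prnd, which encodes the prion-like protein doppel, had 5.64 and 6.69 FPKM in WT against 0 in both null libraries (log2 difference -2.84, SE 0.33, adjusted p = 0.0378). Prnd, at chr2:131735693-131781866 in the annotation used, overlaps Prnp on the same strand, and the assignment of its fragments is uncertain.

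Which genes were called varied with the libraries used. The number of coding genes called was 7 without WT LZ 1, 0 without WT LZ 2, and 1 without either Cnot4-null LZ library, with the lone library of a group assumed to vary like the others. The differences moved less: without 1 library they ranged from 3.45 to 3.67 for Hddc3, 3.83 to 4.20 for Apoc2, 4.39 to 5.26 for Hist1h2ak, -3.01 to -2.59 for 1190002H23Rik and -2.94 to -2.73 for Prnd. Over all alternatives, the adjusted p ranged from 0.00212 to 0.0811 for Hddc3, from 0.00553 to 0.112 for Hist1h2ak, from 0.00314 to 0.13 for Apoc2, from 0.00085 to 0.0917 for 1190002H23Rik and from 0.0196 to 0.222 for Prnd. Prnd was called in only 2 of 13 alternatives and Hddc3 in 11 of 14, not counting those in which the gene was not tested, and with a mean FPKM above 1 in both LZ groups only Apoc2 of the 5 was tested. With coding genes alone in the fit, an alternative chosen after seeing the data, 4 genes were called and Prnd was not (adjusted p = 0.0538). The direction of all 5 genes was the same in every alternative.

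The other 10 called entries were noncoding, and 8 of them rose and 2 fell. They are small nucleolar RNAs, which guide the modification of ribosomal RNA, small Cajal body RNAs, which do so for spliceosomal RNAs, and microRNAs, which guide Argonaute proteins to mRNAs through their seed. The FPKM belong to the gene entries, whose fragments were not assigned to mature microRNAs, so mature levels were not measured. For the 4 called microRNA entries, the mature microRNAs are shown from RefSeq (GRCm38.p6), 5′ to 3′, with the seed (bases 2 to 8) in capitals, to show that no seed is shared between them.

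miR-3068-3p: gGUGAAUUgcaguacuccaaca
miR-3068-5p: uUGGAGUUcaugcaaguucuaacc
miR-3064-3p: uGCCACACugcaacaccuuaca
miR-3064-5p: uCUGGCUGuuguggugugcaaa
let-7d-3p: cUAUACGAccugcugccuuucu
let-7d-5p: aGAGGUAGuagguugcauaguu
miR-1192: aAACAAACaaacagaccaaauu

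All 10 noncoding entries were at 0 in both libraries of a genotype, so the size of a fold would be set by the pseudocount, and their levels are given instead. Mir3068 had 0 in both WT LZ libraries against 291 and 258 FPKM in the null cells, and Mirlet7d had 0 against 80.0 and 70.7. Mir3064 had 753 and 1425 FPKM in WT LZ against 0 in both Cnot4-null libraries, and Mir1192 had 37.7 and 35.6 in WT against 0 in both null libraries. The small nucleolar RNA entry Snora61 had 0 in both WT libraries against 1467 and 1298 FPKM in the null cells. In all of these, a high FPKM in both duplicates of a genotype stood against 0 in the other. The entries are short: the 92 Mir, Snora and Snord entries with a position in the annotation had a median length of 104 bases, against 2744 bases for the transcripts of the tested coding genes. FPKM divides by length, so a small number of fragments gives a high value for them.

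The ratio between duplicates of these entries was close to a ratio of small whole numbers. After division by the relative size of the steps between the lowest nonzero values of the libraries, the ratio of replicate 1 to replicate 2 was 1.00 for Snora61, Mir3068, Mirlet7d and Mir1192. It was 0.5 for Mir3064 and Snord55, 1.5 for Scarna6, 3 for Scarna8, and 4 for Scarna3a and Snord22. All 10 lay within 2% of a ratio of whole numbers up to 5. The WT ratios of the called coding genes 1190002H23Rik (0.677), Prnd (0.798), Hddc3 (1.33) and Apoc2 (1.25) did so too. The null ratios of Hddc3 (0.9), Hist1h2ak (0.957) and Apoc2 (1.15) did not. How often other genes have such ratios was not tested. Of the 116 tested Mir, Snora and Snord entries, 88 had a 0 in at least 1 LZ library, as did 542 of the 12259 coding genes. The part of counting error in these calls was not tested. Mir5121 and Snord47 were past 2 in all 4 ratios with larger differences than most called entries, and were not called with all libraries. Mir5121 had 0 in both WT libraries against 846 and 1498 FPKM in the null cells (adjusted p = 0.505, and from 5.52e-05 to 0.853 in the alternatives), and Snord47 had 940 and 889 in WT against 0 in both null libraries (adjusted p = 0.505, and from 9.32e-06 to 0.853).

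The small nucleolar RNA entries as a list had higher values in Cnot4-null LZ. Of 105 entries in the files, 55 were tested, and 17 of them (30.9%) were higher in both null libraries than in both WT libraries, against 2557 of all tested genes (19.3%), while 1 was lower, against 2573 (19.4%). Their median log2 difference was 1.20, against 0.007 for all genes, and 0.952 to 1.77 when 1 LZ library was left out. It was 1.21 with a pseudocount of 0.1. Of the 116 Mir, Snora and Snord entries tested, 88 had a 0 in at least 1 LZ library, and against a 0 the pseudocount sets the size of a difference. An entry at 0 in a genotype passed the filter only through the genotype in which it was higher. The summed level of the 105 was 21823 and 16348 FPKM in WT against 47126 and 36116 in Cnot4-null LZ. Of these sums, Snora20 alone made up 1580 and 0 FPKM in WT and 10140 and 0 in Cnot4-null LZ. The most abundant entry, Snord104, hosted by a long noncoding RNA gene, had 7733 and 5283 FPKM in WT against 15621 and 15037 in Cnot4-null LZ (log2 difference 1.26, SE 0.28, adjusted p = 0.424). Limma called 3 of the 55, all higher, against 0.113% of all genes, and 11 (20%) had an unadjusted p under 0.05, against 7.33%. In every pair 10 of 62 tested microRNA entries were above WT and 4 below it, with a median of 0.264, which was 0 without Cnot4-null LZ 1 or without Cnot4-null LZ 2.

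The 23 coding genes at least 2 times higher in all 4 ratios included the called Hddc3, Apoc2 and Hist1h2ak. Next in size was Depdc1b, a regulator of cell division and adhesion, with 2.54 and 0.759 FPKM in WT against 10.4 in both Cnot4-null libraries (log2 difference 2.19, SE 0.35, adjusted p = 0.164). Gngt2, a G protein gamma subunit, had 0.886 and 0.838 FPKM in WT against 5.0 and 5.35 in null cells (log2 difference 1.73, adjusted p = 0.278). The calcium-binding S100a13 had 0.304 and 0.864 FPKM in WT against 5.21 and 4.03 in null cells (1.84, adjusted p = 0.202). In each the null duplicates were close together and, by the rule of the 4 ratios, clear of WT, at levels where a pseudocount of 1 shrinks the ratio.

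At a higher level, Gm6268, a predicted gene, had 18.7 and 16.2 FPKM in WT against 60 and 45.7 in Cnot4-null LZ (log2 difference 1.54, SE 0.25, adjusted p = 0.178). Cdkn1c, which encodes the cyclin-dependent kinase inhibitor p57, had 3.75 and 3.20 FPKM in WT against 13.9 and 10.6 in null cells (1.55, SE 0.24, adjusted p = 0.164). Rhebl1, a small GTPase that activates mTOR, had 3.55 and 4.81 FPKM in WT against 15.7 and 12.5 in null cells (1.55, SE 0.32, adjusted p = 0.362). None of these genes passed the test, although they were chosen for groups at least 2 times apart in every ratio.

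Also at least 2 times higher in all 4 ratios, at low levels, were Ppic, a cyclophilin, the zinc finger genes Zfp119b and 2410141K09Rik, Plk2, a stress-induced kinase, and Lin28a. Lin28a, which encodes an RNA-binding protein of spermatogonia that blocks the processing of let-7, had 2.23 and 1.53 FPKM in WT against 5.59 and 6.15 in Cnot4-null LZ (log2 difference 1.26, SE 0.39, adjusted p = 0.542). Mirlet7d, the entry of the let-7d sequences shown above, was at 0 in both WT libraries and had its higher values in null cells. This entry does not measure processed let-7d, and a relation between Lin28a and Mirlet7d was not tested. At the threshold, Fetub with a smallest log2 ratio of 1.00 and D7Ertd715e with 1.01 were just inside, and Snn and 2210408I21Rik with 0.97 just outside. By chromosome, 5 of the 23 genes were on chromosome 7 (955 tested), 4 on chromosome 13 (447) and 3 on chromosome 19 (406).

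**Figure D3:**
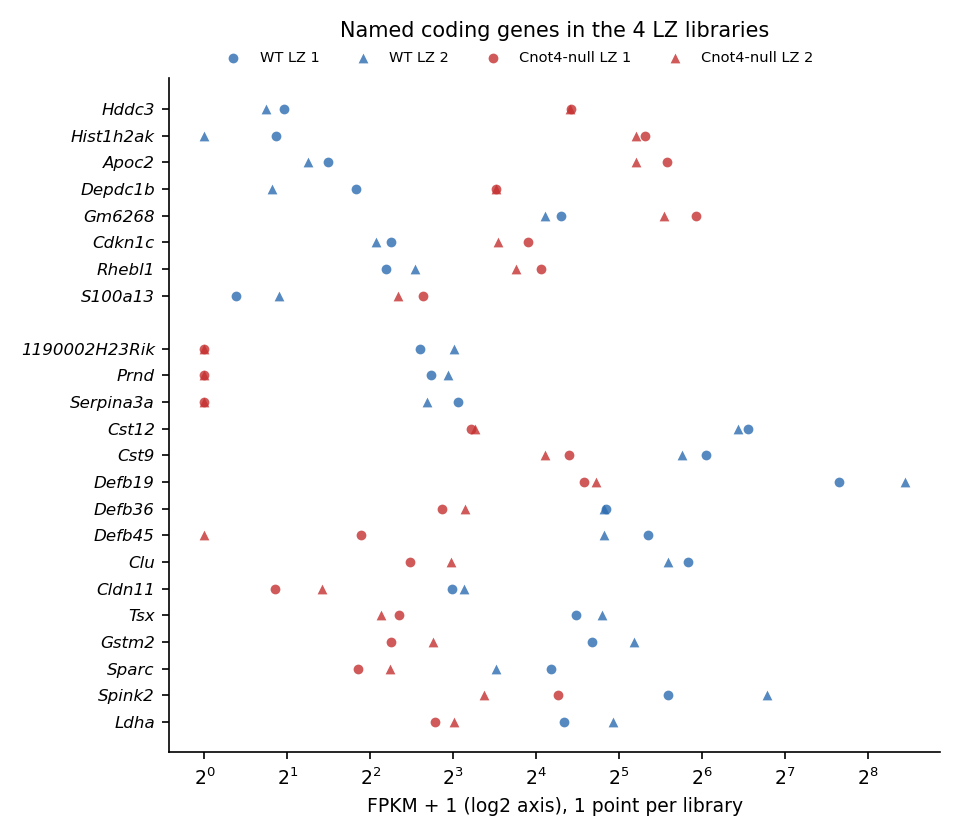
FPKM + 1 (log2 axis) of named coding genes in the 4 LZ libraries, WT in blue and Cnot4-null in red, replicate 1 as circles and replicate 2 as triangles. Genes with all 4 ratios at least 2 upwards are above the gap and those with all 4 downwards below it. By this choice of genes the points of the genotypes cannot overlap.

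Among the 78 coding genes at least 2 times lower in all 4 ratios, several of those with the widest gaps are genes of Sertoli cells. Cst12, a cystatin-family gene of Sertoli cells, had 93.2 and 85.6 FPKM in WT LZ against 8.27 and 8.61 in Cnot4-null LZ. Defb19, a beta-defensin gene active in Sertoli cells, had 200 and 348 FPKM in WT against 22.8 and 25.5 in null cells. Clu, which encodes clusterin, a major secreted protein of Sertoli cells, had 55.9 and 47.4 FPKM in WT against 4.56 and 6.88 in null cells. In all of them each duplicate pair was close compared with the gap between the genotypes, which the choice of the widest gaps favours.

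The log2 differences were -3.26 for Cst12 (SE 0.74, adjusted p = 0.438), -3.40 for Defb19 (SE 0.47, adjusted p = 0.1) and -2.99 for Clu (SE 0.42, adjusted p = 0.1), and none passed the test. The test takes its spread from all 4 groups, and the PD duplicates of these genes were far apart: Cst12 was at 8.24 and 36.7 FPKM in WT PD, and Defb19 at 40.4 and 92.6. With the 4 LZ libraries alone, the adjusted p was 0.0016 for Cst12, 0.00969 for Defb19 and 0.0116 for Clu, with ranges over all alternatives of 0.0016 to 0.82, 0.00969 to 0.554 and 0.0116 to 0.532. Defb19 was also called with the replicate block (adjusted p = 0.0107), and Cst12 and Clu were not (0.568 and 0.0531). The fit of the LZ libraries alone also called Tsx, an X-linked gene of Sertoli and germ cells, with 21.4 and 26.7 FPKM in WT against 4.08 and 3.37 in Cnot4-null LZ (log2 difference -2.40, adjusted p = 0.454 with all libraries and 0.0332 with the LZ libraries, range 0.0332 to 0.844). It called 26 genes in place of 15, of which 8 were coding. The called falls 1190002H23Rik (adjusted p = 0.0825) and Prnd (0.0657) did not pass in this fit, with unchanged log2 differences of -2.80 and -2.84.

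The whole list of Sertoli cell markers showed the same direction. Of 22 listed genes, 21 were in the files and 14 were tested, and 11 of these (78.6%) were lower in both Cnot4-null than in both WT libraries, against 19.4% of all tested genes, while 1 was higher, the junction gene Tjp1. The median log2 difference was -1.38, against 0.007 for all genes, and stayed between -1.92 and -1.20 over the scalings, the pseudocount of 0.1 and the leaving out of each LZ library. With a mean FPKM of at least 5, 7 members were left, of which 5 were lower and 1 higher, with a median of -1.77. A gene at a low level could pass the filter only through the genotype in which it was higher. The list was drawn up with earlier results of these data known. Limma called 0 of the 14, against 0.113% of all genes, and 9 (64.3%) had an unadjusted p under 0.05, against 7.33%. In 7 genes all 4 ratios were at least 2 downwards: Cst12, Cst9, Clu, Defb36, Cldn11, Vim and Aard. Summed over the list, the level was 390 and 343 FPKM in WT against 189 and 150 in Cnot4-null LZ.

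The most abundant gene of the list, Ctsl, a lysosomal protease that many cell types make, did not follow the others. It had 101 and 75.9 FPKM in WT against 123 and 85.5 in Cnot4-null LZ, with overlapping groups and a log2 difference of 0.23, which was -0.03 without Cnot4-null LZ 1. Without Ctsl the sums were 290 and 267 FPKM in WT against 65.9 and 64.2 in Cnot4-null LZ. Among the defining markers, Amh was at 0 in all 4 LZ libraries. Sox9, the transcription factor that specifies Sertoli cells, was at 0.868 and 1.23 FPKM in WT against 0.127 and 0.336 in null cells, and Wt1 at 1.56 and 1.73 in WT against 0.979 and 0.866. Both were low everywhere and lower in the null libraries. Sertoli cells carry an intact Cnot4 gene in these animals and are not the cells the sort was set for, and the part of Sertoli RNA in the difference was not tested. In these sorted samples, fewer cells of a type and less RNA per cell cannot be told apart.

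Cldn11, a member of the list and the claudin of the blood-testis barrier, had 6.90 and 7.76 FPKM in WT against 0.798 and 1.68 in Cnot4-null LZ (log2 difference -1.92, adjusted p = 0.48). Outside the list, other genes below WT in all 4 ratios are also known from Sertoli cells. Rhox8, a homeobox gene of Sertoli cells, and Amhr2, the receptor of anti-Müllerian hormone, were chosen after their values were seen. Rhox8 had 14.6 and 13.5 FPKM in WT against 2.49 and 3.38 in null cells, and Amhr2 had 8.75 and 7.34 in WT against 0.668 and 2.36 (log2 differences -1.94 and -1.93, adjusted p = 0.245 and 0.443). That the groups of these genes did not overlap follows from the rule of the 4 ratios. Gm9112 and Serpina3a, which follow, are not in the Sertoli list. Gm9112, a predicted gene, had 35.7 and 40.1 FPKM in WT against 4.60 and 1.74 in null cells, and was close to the threshold (log2 difference -3.31, SE 0.43, adjusted p = 0.0709, range 0.0276 to 0.434). Serpina3a, a serine protease inhibitor gene, had 7.31 and 5.41 FPKM in WT against 0 in both null libraries (adjusted p = 0.0823, range 0.0244 to 0.446).

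Several of the lower genes are neighbours in 2 clusters on chromosome 2, which held 12 of the 78 and 996 of the 12259 tested coding genes. The cystatin genes Cst12 (chr2:148615097-148619282) and Cst9 (chr2:148660883-148664474) lie close together, as do the defensin genes Defb19 (chr2:152401822-152406048), Defb45 (chr2:152418927-152425135) and Defb36 (chr2:152430063-152438465), all in mm9. Cst9 had 65.2 and 53.1 FPKM in WT against 20 and 16.2 in Cnot4-null LZ, Defb36 had 27.7 and 27.3 in WT against 6.30 and 7.80, and Defb45 had 39.7 and 27.2 in WT against 2.71 and 0. Since these members had their lower values together, the 150 bases before the start sites of the 4 that matched RefSeq by symbol (GRCm38.p6), all but Defb19, are shown, 5′ to 3′ on the strand of the gene (plus for Cst9, Cst12 and Defb36, minus for Defb45), with the core GATA motif GATAA in capitals where it was found.

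Cst9 promoter: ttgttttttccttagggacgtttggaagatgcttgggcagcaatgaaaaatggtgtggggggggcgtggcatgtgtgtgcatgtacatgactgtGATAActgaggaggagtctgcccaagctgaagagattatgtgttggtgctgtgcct
Cst12 promoter: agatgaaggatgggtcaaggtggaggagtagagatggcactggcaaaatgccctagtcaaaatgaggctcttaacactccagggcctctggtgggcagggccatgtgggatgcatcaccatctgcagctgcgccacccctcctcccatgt
Defb36 promoter: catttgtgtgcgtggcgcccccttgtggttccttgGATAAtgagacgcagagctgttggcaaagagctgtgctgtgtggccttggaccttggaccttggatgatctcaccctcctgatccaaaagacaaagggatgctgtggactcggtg
Defb45 promoter: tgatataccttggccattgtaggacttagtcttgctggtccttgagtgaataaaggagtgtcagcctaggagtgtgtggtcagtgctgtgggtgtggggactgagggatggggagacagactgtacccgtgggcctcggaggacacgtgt

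GATAA, searched on both strands, was in the windows of Cst9 and Defb36 and not in those of Cst12 and Defb45, and 13.6% of 27025 promoter windows of this length held it. TATAAA was in none of the 4 windows and in 8.08% of all. A match is only a run of letters, and binding was not measured here.

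Gstm2, Aldh1a1 and Sparc were also among the 78. Gstm2, a glutathione transferase gene, had 24.5 and 35.3 FPKM in WT against 3.75 and 5.76 in Cnot4-null LZ (log2 difference -2.43, SE 0.57, adjusted p = 0.454). Aldh1a1, which makes retinoic acid, had 4.60 and 5.72 FPKM in WT against 1.00 and 0.886 in null cells, and Sparc, a matrix glycoprotein, had 17.1 and 10.4 in WT against 2.62 and 3.72. By the rule of the 4 ratios the groups of these 3 genes cannot overlap. At higher levels, the peroxiredoxin gene Prdx2 had 63.7 and 76.6 FPKM in WT against 28.6 and 26.3 in null cells (log2 difference -1.32, SE 0.20, adjusted p = 0.164), and Smagp, a small membrane protein gene, had 81.1 and 70.2 in WT against 32.4 and 31.0 (-1.23, SE 0.19, adjusted p = 0.164). Just inside the threshold were 1700017D01Rik and Dio1 with a smallest log2 ratio of -1.01, and just outside it was Susd3, at -1.0 after rounding.

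Another set of the lower genes was that of the later stages. A level at least 5 times higher in WT PD than in WT LZ was found for 21 of the 78 (26.9%), against 1012 of all 12259 tested coding genes (8.26%). Spink2, an inhibitor of acrosomal proteases, had 47.3 and 109 FPKM in WT LZ against 18.3 and 9.38 in Cnot4-null LZ, and 5417 and 5463 in WT PD. Ldha, a lactate dehydrogenase gene, had 19 and 29.4 FPKM in WT LZ against 5.86 and 7.05 in Cnot4-null LZ, against 997 and 1130 in WT PD. Their log2 differences at LZ were -2.36 (SE 0.60, adjusted p = 0.505) and -1.74 (SE 0.32, adjusted p = 0.294). The called 1190002H23Rik was likewise higher in WT PD, at 40.6 and 48.6 FPKM. In 19 of the 21 genes WT LZ 2 had the higher of the WT values, as in 719 of the 1012. Symbols ending in Rik made up 16 of the 78 genes (20.5%), against 7.02% of the tested coding genes. How far a different share of later cells in the sorted samples entered these values was not tested. Without the Sertoli list 71 of the 78 genes were left, and without the later genes 57, both counts chosen after seeing the data.

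The lists of meiotic stages showed little beyond the spread of the duplicates. Of the 17 tested leptotene and zygotene markers, 6 (35.3%) were higher and 0 lower in every pair, against 19.3% and 19.4% of all tested genes. Their median log2 difference was 0.319, which was 0.036 without Cnot4-null LZ 1 and 0.627 without Cnot4-null LZ 2. Sycp3, a component of the chromosome axis, had 650 and 906 FPKM in WT against 1725 and 907 in Cnot4-null LZ (log2 difference 0.70, SE 0.39, adjusted p = 0.761), so that the gap between the null duplicates was larger than that between the genotypes. Of 30 pachytene and diplotene markers, 2 were higher and 8 lower (6.67% and 26.7%), with a median of -0.336 (-0.061 without Cnot4-null LZ 2). In the 29 spermatid genes, 0 were above and 5 (17.2%) below WT in every pair. Their median was -0.122, which was -0.768 without Cnot4-null LZ 1, 0.483 without Cnot4-null LZ 2 and 0.097 without WT LZ 2. Prm1, the protamine gene of spermatids and the most abundant of them, had 911 and 612 FPKM in WT against 1991 and 240 in Cnot4-null LZ. Summed over the 30 spermatid genes in the files, the level was 2232 and 2137 FPKM in WT against 4731 and 983 in Cnot4-null LZ, so the null duplicates lay on either side of WT. Limma called 0 members of these 3 lists, and 0, 5 and 4 members had an unadjusted p under 0.05 (0%, 16.7% and 13.8%), against 7.33% of all genes.

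No meiotic recombination gene was called. In the axis and synaptonemal complex list, 5 of 19 were higher and 1 lower in every pair (26.3% and 5.26%). The background of all tested genes was 19.3% and 19.4%. The median of the axis list was 0.189 (-0.026 without Cnot4-null LZ 1 and 0.447 without Cnot4-null LZ 2). In the list of break formation and strand exchange, 4 of 26 were higher and 2 lower (15.4% and 7.69%), with a median of 0.019, which was -0.169 without Cnot4-null LZ 1 and 0.163 without Cnot4-null LZ 2. In the crossover and mismatch repair list, 2 of 16 were higher and 3 lower (12.5% and 18.8%). The median was 0.006 (-0.157 without Cnot4-null LZ 1 and 0.101 without Cnot4-null LZ 2). In the DNA damage signalling and end joining list, 4 of 21 were higher and 3 lower (19% and 14.3%), with a median of 0.194 (-0.048 without WT LZ 2). In these 4 lists 1, 0, 0 and 0 members had an unadjusted p under 0.05 (5.26% of the axis list, against 7.33% of all genes).

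The CCR4-NOT subunits, of which CNOT4 is a partner, had 3 of 11 tested genes higher and 1 lower in every pair, with a median of 0.039, which was -0.035 without Cnot4-null LZ 1 and 0.099 without WT LZ 2. The summed level of the subunits was 305 and 329 FPKM in WT against 344 and 312 in Cnot4-null LZ, with overlapping groups. Factors of deadenylation, decapping and uridylation were higher in 11 of 32 (34.4%) and lower in 3, with a median of 0.161 (0.024 without WT LZ 2). Splicing factor genes were higher in 26 of 65 (40.0%) and lower in 6, with a median of 0.138, and the Zfp zinc finger genes in 94 of 296 (31.8%) and lower in 32, with a median of 0.129. Cytosolic ribosomal protein genes were higher in 23 of 85 (27.1%) and lower in 7, with a median of 0.109. Without Cnot4-null LZ 1 this median was 0.008, while that of all tested genes was -0.067. Over all genes 19.3% were higher and 19.4% lower. Limma called 0 members of these 5 lists, and 0, 3, 2, 13 and 2 members had an unadjusted p under 0.05 (0%, 9.38%, 3.08%, 4.39% and 2.35%), against 7.33% of all genes.

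Spermatogonial genes were higher in 9 of 21 (42.9%) and lower in 2, with a median of 0.176. With a mean FPKM of at least 5 these were 3 of 14 (21.4%) and 2, with a median of 0.059, and the list summed to 2334 and 2374 FPKM in WT against 2249 and 2160 in Cnot4-null LZ. Immediate early and heat shock genes were higher in 9 of 28 and lower in 2, with a median of 0.311 (0.133 without Cnot4-null LZ 1), and ubiquitin-conjugating E2 enzyme genes in 11 of 35 and lower in 7 (0.119, and -0.003 without WT LZ 1). Glycolysis genes were higher in 3 of 23 and lower in 8 (-0.162, and 0.003 without WT LZ 2), and histone cluster genes in 6 of 41 and lower in 9 (-0.126, 0 without WT LZ 2 or without Cnot4-null LZ 1, and 0.098 in the 11 with a mean FPKM of at least 5), with Hist1h2ak as the called member. Peritubular and endothelial markers were higher in 1 of 7 and lower in 2 (-0.638, -0.296 without WT LZ 2 and -0.039 in the 3 with a mean FPKM of at least 5), with Sparc past 2 times. Of the spermatogonial, stress, E2, glycolysis, histone and peritubular lists, 14.3%, 7.14%, 8.57%, 13%, 17.1% and 14.3% of the members had an unadjusted p under 0.05, against 7.33% over all genes, where 19.3% lay above and 19.4% below WT in every pair. The 21 genes of the list in the files summed to less in Cnot4-null LZ, at 49.2 and 41.5 FPKM against 61.4 and 66.4 in WT.

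In the remaining lists the medians lay between -0.055 for macrophage and leukocyte markers and 0.066 for piRNA and germ granule genes. They were the retinoic acid pathway (3 higher and 5 lower in every pair of 18), Leydig cell markers (0 and 1 of 5), macrophage and leukocyte markers (1 and 0 of 15), apoptosis genes (3 and 3 of 25), cyclins and division regulators (10 and 9 of 36) and MCM helicase and replication genes (5 and 9 of 26). The others were piRNA genes (7 and 3 of 21), DNA methylation and TET genes (0 and 2 of 17), oxidative phosphorylation genes (13 and 14 of 89), proteasome subunits (5 and 7 of 49), translation initiation factors (13 and 10 of 56), kinesins and tubulins (9 and 12 of 55) and olfactory receptors (1 and 0 of 10). For comparison, 19.3% of all tested genes lay above WT in each pair and 19.4% below it. The list medians took either sign when 1 library was left out in most of the lists. The widest range was that of the macrophage and leukocyte markers, from -1.221 without WT LZ 2 to 0.885 without WT LZ 1. An unadjusted p under 0.05 was found in 11.1% of retinoic acid pathway genes, 10% of olfactory receptors, 9.52% of piRNA genes and 8% of apoptosis genes. Over all genes this share was 7.33%, and in the other lists just named it was 0% to 3.85%. No red blood cell marker was tested, none having more than 1 FPKM in an LZ library. A called member was found in 3 of the 34 lists with a tested gene, the histones, the small nucleolar RNAs and the microRNAs.

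**Figure D4:**
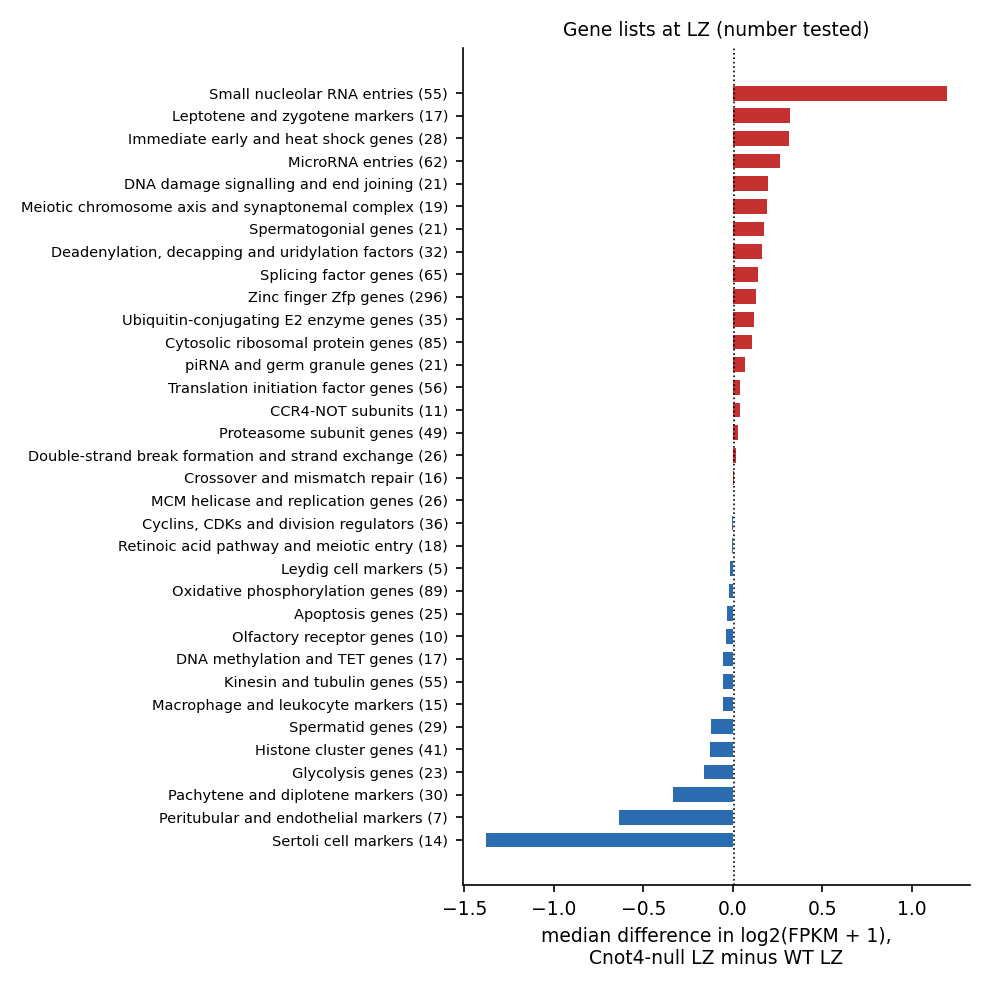
Median difference in log2(FPKM + 1) between Cnot4-null LZ and WT LZ (x axis) over the tested members of each gene list (y axis, number tested in brackets), with the median of all tested genes as a dotted line. The Sertoli cell markers (-1.38) and the small nucleolar RNA entries (1.20) lie furthest from it.

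By chromosome, the median log2 differences lay between -0.068 (chromosome 19) and 0.149 (X), apart from 0.225 for the 9 genes on Y. On the X chromosome, 127 of 509 coding genes (25.0%) lay above WT in every pair and 63 (12.4%) below it. For coding genes outside X and Y these shares were 18.9% and 19.9%, and the median was 0.001. Chromosome 13 had 116 of 447 coding genes above WT and 78 below it, and chromosome 11 had 158 of 1019 above and 244 below. Without Cnot4-null LZ 1 the X median was 0.039, against -0.070 for coding genes outside X and Y. Genes past 2 times were short: the median transcript was 1286 bases for the 23 higher and 1198 for the 78 lower genes, against 2744 for the tested coding genes, and the median 3′ UTR was 301 and 190 bases, against 888. Of the 2348 coding genes that were higher in every pair the median length was 3164 bases and the GC content 48.0%, and of the 2397 lower ones 2321 bases and 52.8%, against 50.3% for all.

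At PD the difference between the genotypes was wider. There 7188 of the 12259 coding genes were higher in both Cnot4-null than in both WT libraries (58.6%) and 2937 lower (24.0%), in libraries that LZ does not share. The median log2 difference over all genes was 0.60 at PD as deposited, -0.17 under quantile normalization and -0.18 when every library was given the same median, so directions at PD depend on the scaling. Of the 23 coding genes higher at LZ, 22 were higher in every pair at PD as well (95.7% of the 23 and 0.306% of the 7188), with 2410141K09Rik as the exception. Under quantile normalization 18 of the 23 had a PD difference above 0 and under rescaling 19, against 43.8% and 45.3% of the coding genes. Apoc2 was at 0 and 0.275 FPKM in WT PD against 91.9 and 46.9 in Cnot4-null PD, so its higher level in null cells was found at both stages.

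Of the 78 genes lower at LZ, 42 were higher in every pair at PD (53.8%, and 0.584% of the 7188) and 23 lower (29.5%, and 0.783% of the 2937). These shares were near those of all tested coding genes, 58.6% and 24.0%. The median PD difference of the 78 was 1.06 as deposited, against 0.61 for all tested coding genes. It was -0.08 under quantile normalization, where 36 of the 78 (46.2%) lay above 0, and 0.15 under rescaling, where 41 (52.6%) did. For all tested coding genes these medians were -0.16 and -0.21, with 43.8% and 45.3% above 0. The 21 later genes were lower at PD in 20, as were 860 of the 1012 later genes in all. The other 57 were higher in 42 and lower in 3, against 7169 and 2077 of 11247. Clu was at 8.06 and 15.3 FPKM in WT PD against 94.6 and 196 in Cnot4-null PD, and Defb19 at 40.4 and 92.6 in WT PD against 640 and 1235 in Cnot4-null PD, which is the opposite order to that at LZ. Cst12 was at 8.24 and 36.7 FPKM in WT PD against 18.6 and 4.42 in Cnot4-null PD, with overlapping groups. Summed over the Sertoli list, the PD level was 48.5 and 114 FPKM in WT against 246 and 404 in Cnot4-null cells, where LZ had the higher sums in WT. This was not particular to Sertoli genes: the sums at PD were 365 and 249 FPKM in WT against 10345 and 22509 in Cnot4-null cells for Leydig cell markers, 13.5 and 9.73 against 356 and 947 for macrophage and leukocyte markers, and 33 and 13.1 against 580 and 1310 for peritubular and endothelial markers. The part of somatic RNA in the PD values was not tested.

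The interaction of genotype and stage was called by limma in 4140 of the 13255 genes (31.2%), and in 87.7% of these the difference was higher at PD. This share was 49.0% after quantile normalization, with 2547 genes called, and 35.8% after rescaling, with 5958 called. Of the 78 lower genes 51 were called, all with a higher difference at PD, and of the 23 higher genes 8, of which 5 were higher at PD. The interaction contains the LZ difference by which these genes were chosen, so the share of them that passed is a description. For Clu the difference between the stages was 6.48 (adjusted p = 0.00106) and for Defb19 7.24 (adjusted p = 0.00111).

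**Figure D5:**
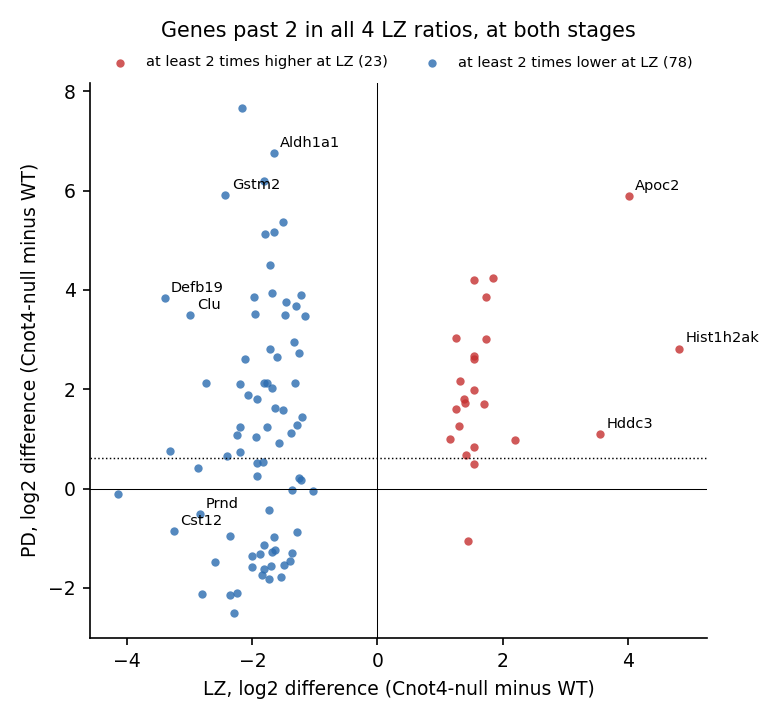
Log2 difference between Cnot4-null and WT at LZ (x axis) and at PD (y axis) for the 23 coding genes higher (red) and the 78 lower (blue) in all 4 LZ ratios, with the PD median of the tested coding genes as a dotted line. All red points but 2410141K09Rik lie above 0 at PD, and the blue points lie on both sides of it.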

How the data were processed

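RNA-seq was carried out on sorted spermatocytes of both genotypes at LZ and PD, with 2 libraries in each of 4 groups. The values analysed are FPKM as deposited, with a single value per gene symbol and library, which the authors made with Cufflinks 2.2.1 from trimmed reads that TopHat2 2.1.1 had placed uniquely on mm9. The labels describe libraries made from total RNA with a TruSeq kit, whereas the methods describe amplified cDNA of sorted cells, and which was used could not be determined. The files analysed hold no read counts, so only the inverse size of the steps between the lowest nonzero values was compared (0.935 to 1.06 of WT LZ 1 in the other LZ libraries), which need not follow the total reads, and no counting error was computed. The study's supplement lists total reads and mapping rates per library, which were not used. By those totals Cnot4-null LZ 1 had the most reads of the LZ libraries, whereas by the steps it had the lowest value (0.935).

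Genes with FPKM above 1 in at least 1 of the 4 LZ libraries were kept. A model of the 4 groups was fitted to log2(FPKM + 1) of all 8 libraries (limma 3.58.1 under R 4.3.3, functions lmFit, contrasts.fit and trended eBayes), with 4 residual degrees of freedom and two-sided tests, and Benjamini-Hochberg adjustment ran over all tested genes. A gene was called at an adjusted p under 0.05. Genes past 2 times in all 4 single-library ratios of FPKM + 1, and genes higher or lower in every pair of libraries, were counted without a test. Coding genes and positions were taken from GENCODE vM1, which matched 21956 symbols (94.5%). The genes named were Cnot4, the called coding genes, the largest and the most abundant coding genes past 2 times in each direction, the largest small RNA entries, the genes just inside and outside the threshold, and the most abundant and the changed members of the gene lists. The lists were described by counts and medians. The members and the lists were chosen with earlier results of these data known. Replicate numbers were not treated as pairs.

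Alternatives covered the filter, the pseudocount, quantile normalization, rescaling to the same median, a replicate block, the LZ libraries alone, eBayes without a trend, a stricter adjusted p and the leaving out of each LZ library. Fits with coding genes only, and counts without the Sertoli list or without later genes, were added after seeing the data. The fit was tested on simulated data for the LZ comparison (13255 genes): limma called 17 of 50 genes raised by 1 log2 unit, 50 of 50 raised by 2, 50 of 50 raised by 3, 23 of 50 lowered by 1 and 9 of 13055 unchanged genes. The raised and lowered genes had a WT level above 1 on the log2(FPKM + 1) scale. The simulated noise was normal, with the SD typical of each level. Genes that vary more than is typical of their level were not simulated, so these counts do not give the recovery of such genes. Counts, medians and figures were made in Python 3.11.15 (numpy 2.4.6, pandas 2.3.3, matplotlib 3.10.9).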

Additional observations from a re-analysis of the deposited data

Results flagged for a closer look

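The following results were singled out because the difference between Cnot4-null and WT cells was not the same at LZ and PD by limma's interaction of genotype and stage, which passed in 4140 genes. The values are the log2 difference at PD minus that at LZ in the FPKM as deposited, where the median of all genes lay 0.60 above 0 at PD. Among the called coding genes, it was -2.48 for Hddc3, -2.0 for Hist1h2ak, 1.87 for Apoc2 and 2.32 for Prnd. Among the higher coding genes, it was 2.12 for Gngt2, 2.40 for S100a13, 2.67 for Gm6268, -2.51 for 2410141K09Rik and 1.76 for Lin28a, and next to the threshold it was 1.72 for Snn and -1.65 for 2210408I21Rik.

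The Cnot4-null PD libraries also had far higher levels of Leydig, macrophage and peritubular markers than WT PD, with median log2 differences of 2.411, 3.248 and 3.421. Among the genes known from Sertoli cells, the difference between the stages was 7.24 for Defb19, 6.48 for Clu, 3.06 for Tsx, 2.35 for Defb36, 2.17 for Cldn11, 2.32 for Ctsl, 2.99 for Rhox8 and 3.74 for Amhr2. For the other lower genes it was 4.06 for Gm9112, 3.29 for Serpina3a, 8.34 for Gstm2, 8.40 for Aldh1a1, 6.91 for Sparc, 3.45 for Prdx2, 5.12 for Smagp and 6.41 for Susd3. Of the meiotic and spermatid genes, it was 3.86 for Stra8, -1.88 for Sycp3 and 5.46 for Prm1.

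The small RNA entries listed here were at 0 in all PD libraries, apart from Mir3064. Their values repeat a difference from 0 FPKM at LZ, and the size of these values is set by the pseudocount of 1. The difference was -10.43 for Snora61, -8.10 for Mir3068, 9.71 for Mir3064, -6.25 for Mirlet7d, 5.23 for Mir1192, -7.20 for Scarna8, -6.41 for Scarna3a, -6.03 for Snord22 and -2.95 for Scarna6.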

How the results depend on the processing

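The number of genes called at LZ, 15, was 1 with a mean FPKM above 1 in both LZ groups, where genes at 0 in a genotype drop out, 26 with the 4 LZ libraries only, and 10 to 25 without 1 LZ library. With the replicate block (replicate number as a factor) it was 15, of which 13 were the same genes. With coding genes only, chosen after seeing the data, it was 4. The replicate numbers do not pair the libraries: across genes, the deviations of replicate 1 from its group mean had a correlation of -0.0572 between the genotypes at LZ.

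The 23 coding genes at least 2 times higher in all 4 ratios became 9 with a mean FPKM of at least 5, 11 with a mean above 1 in both groups, 108 with a pseudocount of 0.1 and 109 to 195 without 1 LZ library. The 78 lower ones became 39, 47, 234 and 164 to 380 in the same order. Without the Sertoli list or the later genes, both chosen after seeing the data, the higher counts were 23 and 21 and the lower ones 71 and 57. The genes higher in every pair, 2557, were 1637 with a mean FPKM of at least 5 and 3669 to 5490 without 1 library, and the lower ones, 2573, were 1636 and 3698 to 5111. Fewer ratios have to agree when a library is left out. The interaction count of 4140 was 2547 after quantile normalization, 5958 after rescaling and 3882 with the replicate block, and the cause was not tested.

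Without 1 LZ library, the log2 difference changed sign in Cnot4 (-0.04 to 0.28), Ctsl (-0.03 to 0.49) and Prm1 (-1.63 to 1.41, with 0.18 without WT LZ 1), the negative values of Cnot4 and Ctsl being those without Cnot4-null LZ 1. Of 841 values of the 60 named genes under the alternatives, 779 kept their direction and their side of the threshold. No counting error was computed, as the files hold no read counts.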
